A study of Arabidopsis thaliana with 4 samples.

Results

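The genes described here are 6 neighbouring chitinase-like loci on chromosome 2 of Arabidopsis thaliana, AT2G43570 (symbol CHI, annotated as a putative chitinase), AT2G43580, AT2G43590, AT2G43600, AT2G43610 and AT2G43620. They were taken as the probe sets that the array annotation pairs with exactly 1 gene at one of these loci. All 6 loci had a row, each from 1 probe set, of 9647 probe sets in the table paired with 1 locus of the TAIR10.1 reference. The run of loci was selected on the difference of CHI between leaves after and before treatment, seen in these same arrays, and the other 5 were added by position. The change of every member is therefore given as a description, with no test. In the reference the 6 follow one another with no other protein-coding locus between them and with 2 loci of other kinds in between.

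Transcript levels came from leaves of plants that were 5 weeks old, grown in short days. In one group leaves were taken 72 h after the roots had been drenched with probenazole (PBZ) at 0.5 mM. This compound activates plant defence and was applied by the submitters to make the plants form salicylic acid. In the other, leaves were taken before any PBZ, at 0 h. Each group had 2 biological replicates, each on its own Affymetrix array, and rosette leaves 5 to 8 were used. None of the 4 samples was untreated at 72 h, so the effect of PBZ and that of 72 h of further growth cannot be told apart.

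Chitinases cut chitin, a polymer of N-acetylglucosamine that strengthens fungal cell walls and that plants themselves do not make. Plant chitinases belong to glycoside hydrolase families GH18 and GH19, and many are secreted or stored in the vacuole, where they act on fungal hyphae and release fragments. Those fragments are recognised at the plant cell surface by receptor kinases with LysM domains, such as CERK1 in Arabidopsis. Several chitinases count among the pathogenesis-related proteins, whose transcripts accumulate in leaves during defence responses that run through salicylic acid, jasmonate or ethylene.

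Median signals were 32.5 and 27.1 on the arrays after PBZ and 19.2 and 27.6 on the arrays before PBZ, so brightness was not equal. As deposited, the median log2 change of all 12239 probe sets tested was 0.37. It was -0.06 after quantile normalization and 0.01 after centring the arrays on their medians. The leaf markers PRK, SBPASE and LHCB4.2 were measured, 3 of 10 listed, at signals between 1855.5 and 5330.8 on every array. PRK had 3071.1 and 1855.5 after PBZ against 4527.2 and 4818.9 before PBZ (log2 change -0.97), and SBPASE (-0.65) was also lower on both arrays after PBZ, while LHCB4.2 (-0.09) overlapped. Their median log2 change was -0.65 and none passed the test. Of 5 root markers 2 had rows, with all signals at 2.9 or less. The guard cell factor FMA (1 of 4 listed) had 28.9 and 35.5 after PBZ against 22.5 and 24.7 before. The phloem sugar transporter SWEET11 (1 of 4) had 1118.3 and 1342.5 after PBZ against 2008.7 and 1472.7 before. No listed epidermis or flower marker was analysed here. As a check of RNA integrity, the 3' signal of actin, GAPDH and ubiquitin controls was divided by the 5' signal. The groups overlapped for all 6 such pairs of control probe sets, which compares the groups and does not show that the RNA was intact. The 3' signal of the first actin pair was at least 22.4 times the 5' signal on every array. The second GAPDH pair had ratios of 0.972 to 1.68. Single arrays also stood apart. Before replicate 1, also the dimmest array, had the lowest ratio in 4 of the 6 pairs, among them the second actin pair at 2.54 against 10.6 to 12.9 on the other arrays, while after replicate 1 had 64.8 for the first actin pair against 22.4 to 26.5. The part of these differences in the results was not tested, and results that rest on 1 array are given with and without it.

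CHI had the largest log2 change of the 6 members. The run was selected on this difference, so nothing is read from that place or from the ranks of CHI given below. The signal of CHI was 2373.1 and 1128.5 on the 2 arrays after PBZ, against 28.8 and 19.4 on the 2 arrays before PBZ. Both treated arrays lay far above both untreated ones, and the lower treated value was well clear of the higher untreated one. The mean was 1751 ± 880 after PBZ and 24.1 ± 6.65 before PBZ (SD, 2 arrays per group), a ratio of geometric means of 69.2. On the log2 scale the change was 6.11 ± 0.56 (SE of the limma fit). It ranked 24 among the 12239 tested probe sets, many of which read close to 0 before PBZ, where a fold is poorly measured. Among the 9873 whose 4 signals all reached 6.30, the lower quartile of all signals and used below as a floor, CHI ranked 5. As these are whole leaves, more transcript per cell and more cells that contain it cannot be told apart.

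AT2G43620, the member at the far end of the run from CHI, was the only other one above the floor on all 4 arrays. It read 42.4 and 75.0 after PBZ against 8.7 and 8.7 before PBZ. The groups did not overlap, and the 2 untreated arrays gave the same value. The ratio of geometric means was 6.48 and the log2 change 2.70 ± 0.64 (SE). The untreated values lay just above the floor, and the log2 change was 3.11 when after replicate 1 was left out and 2.28 when after replicate 2 was.

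The pair AT2G43590 and AT2G43610 also read higher on both arrays after PBZ, against dim untreated signals. AT2G43590 had 17.1 and 33.2 after PBZ against 8.0 and 1.4 before PBZ, with a log2 change of 2.83 ± 1.05 (SE). With the lower untreated array set to the floor, the ratio of geometric means was 3.36. The size of the change rested on that array, since leaving out before replicate 1 gave a log2 change of 4.09 and leaving out before replicate 2 gave 1.57. AT2G43610 had 7.0 and 26.6 after PBZ against 1.6 and 1.8 before PBZ. With both untreated arrays set to the floor, the ratio of geometric means was 2.17. One treated array thus barely reached the floor. Its geometric mean over the 4 arrays, 4.81, fell just short of the 4.86 a probe set needed to enter the fit, so it has no fitted error.

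The remaining pair gave no difference that could be read. AT2G43580 had 0.6 and 13.6 after PBZ against 0.8 and 6.2 before PBZ, with 3 of the 4 arrays under the floor. The 2 groups overlapped, and within each the replicates differed more than the groups did. AT2G43600 had 0.3 and 1.0 after PBZ against 0.4 and 0.5 before PBZ, under the floor throughout. A change at AT2G43580 or AT2G43600 was not detectable at these signals, which does not show that there was none.

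**Figure D1:**
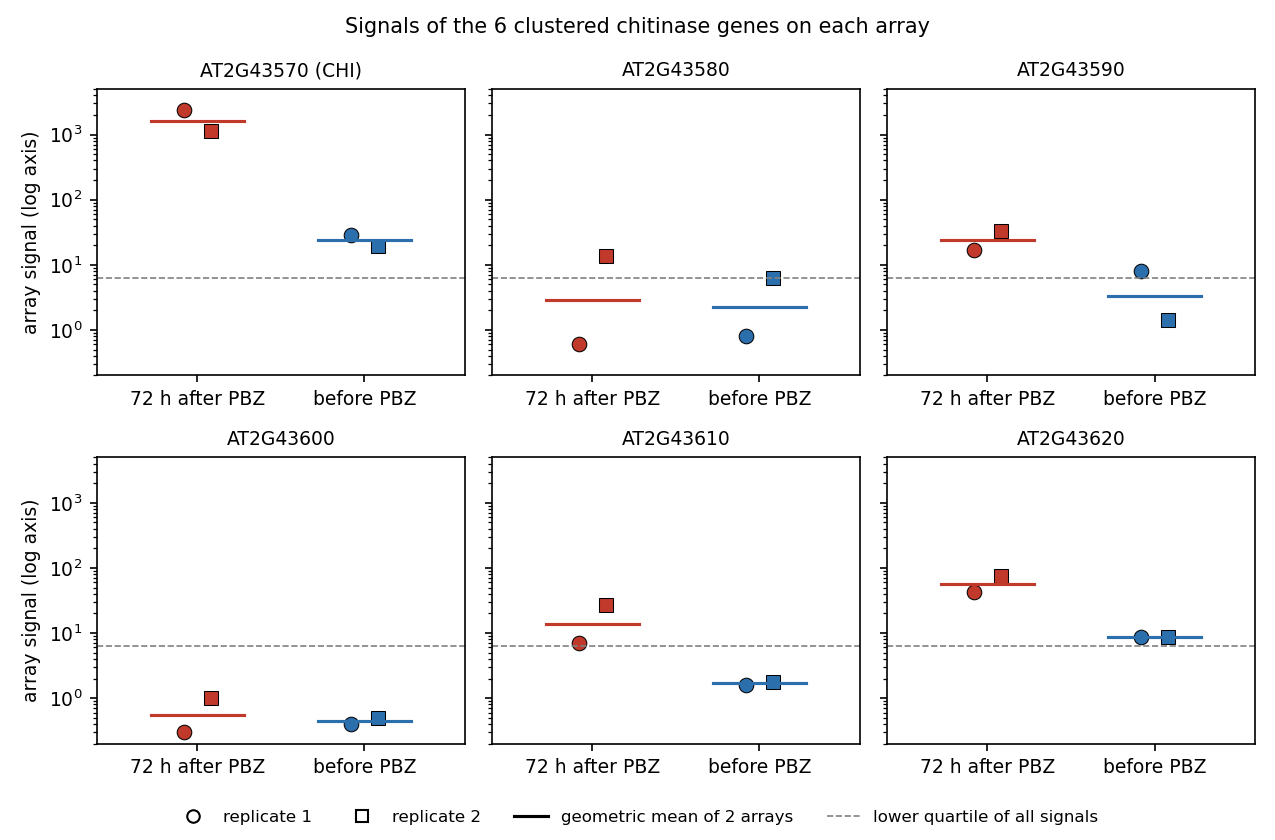
Signal of each of the 6 loci on the 2 arrays after PBZ (red, left) and the 2 arrays before PBZ (blue, right), on a log axis in array signal units. Points are arrays, with replicate 1 as circles and replicate 2 as squares, bars are geometric means and the dashed line is the floor of 6.30. CHI sits at 2373.1 and 1128.5 against 28.8 and 19.4, while AT2G43600 lies under the floor on all 4 arrays.

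Across the run, 4 of 6 members had both treated arrays above both untreated ones and 2 overlapped. Of all 16319 probe sets, 31.6% had both arrays after PBZ above both before it. Because the run was selected on this contrast, nothing is read from the members' count. Of the 6, 3 passed the filter on dim probe sets (CHI, AT2G43590 and AT2G43620) and 3 did not. AT2G43590 passed only through its treated signals. Its geometric mean was 23.8 after PBZ and 3.35 before PBZ, against the 4.86 needed over the 4 arrays.

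Placing each signal among all signals of its own array gives a view that does not depend on how the arrays were scaled. CHI stood at percentiles 99.1 and 97.5 after PBZ and at 58.0 and 43.6 before PBZ. AT2G43620 stood at 54.3 and 69.3 after PBZ and at 34.4 and 28.7 before PBZ. By this measure CHI was among the brightest few percent of the array after PBZ, and AT2G43620 in its brighter part. AT2G43590 was at 40.8 and 53.8 after PBZ against 32.6 and 9.88 before PBZ. AT2G43610 was at 26.4 and 49.7 after PBZ against 15.7 and 12.3 before PBZ. The same 4 loci did not overlap between the groups by percentile. Each probe set binds with its own strength, so these percentiles compare 1 locus across arrays and do not rank the loci by transcript amount.

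The replicates after PBZ ordered CHI and its neighbours differently. CHI was 2.10 times as bright on after replicate 1 as on after replicate 2. AT2G43590, AT2G43610 and AT2G43620, with both treated signals above the floor, had ratios of 0.515, 0.263 and 0.565, so each was brighter on after replicate 2. AT2G43580 had 1 treated signal under the floor and AT2G43600 had both, so their ratios are not read. Of all probe sets, 51.5% were brighter on after replicate 1, and of those tested 55.7%.

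The question of whether the loci on either side behaved like the run was addressed with every measured locus from AT2G43400 to AT2G43800. The reference lists 46 loci there, of which the 6 members and 18 others had rows, and 15 of these others were bright enough to test. At an adjusted p under 0.05 (limma, Benjamini-Hochberg over all 12239 probe sets), 0 of 15 were called as rising or falling. With 2 arrays per group this does not show that none of them changed. An unadjusted p under 0.05 was found for 4. The share over all probe sets at that level was not counted, so nothing is read from this number. Both treated arrays lay above both untreated ones for 7 of the 18 neighbours with rows, all 7 tested, and below them for 1. Among all 16319 probe sets, dim ones included, 31.6% had both treated arrays above. The share above among tested probe sets and the share below were not counted, so nothing is read from these counts. Over all tested probe sets 5.34% rose (653) and 0.245% fell (30), and under quantile normalization 546 rose and 278 fell. With arrays centred on the median 604 rose and 179 fell. With before replicate 2 left out, so that the dimmest array stood alone for the untreated leaves, 1136 rose, and with before replicate 1 left out 328 did. The tested neighbours had a median log2 change of 0.77, against 0.37 for all tested probe sets.

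The nearest measured loci flank the run directly. AT2G43560, next to CHI, had 281.6 and 367.8 after PBZ against 299.1 and 411.5 before PBZ, a log2 change of -0.12 ± 0.52 (SE, limma adjusted p = 0.943). Its groups overlapped. AT2G43630, next to AT2G43620, had 546.3 and 460.5 after PBZ against 180.0 and 314.8 before PBZ, a log2 change of 1.08 ± 0.53 (adjusted p = 0.296). Its groups did not overlap, but the difference did not pass. Of the tested neighbours the extremes, named after their values were seen, were AT2G43640 at 1.70 ± 0.56 (adjusted p = 0.0708) and AT2G43550 at -1.25 ± 0.57 (adjusted p = 0.252). AT2G43640 passed when the dimmer 0.5 of probe sets was left out (adjusted p = 0.0400), and AT2G43550 passed as a fall under quantile normalization (adjusted p = 0.0405). Whether the members' changes differ from those of the neighbours was not tested.

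**Figure D2:**
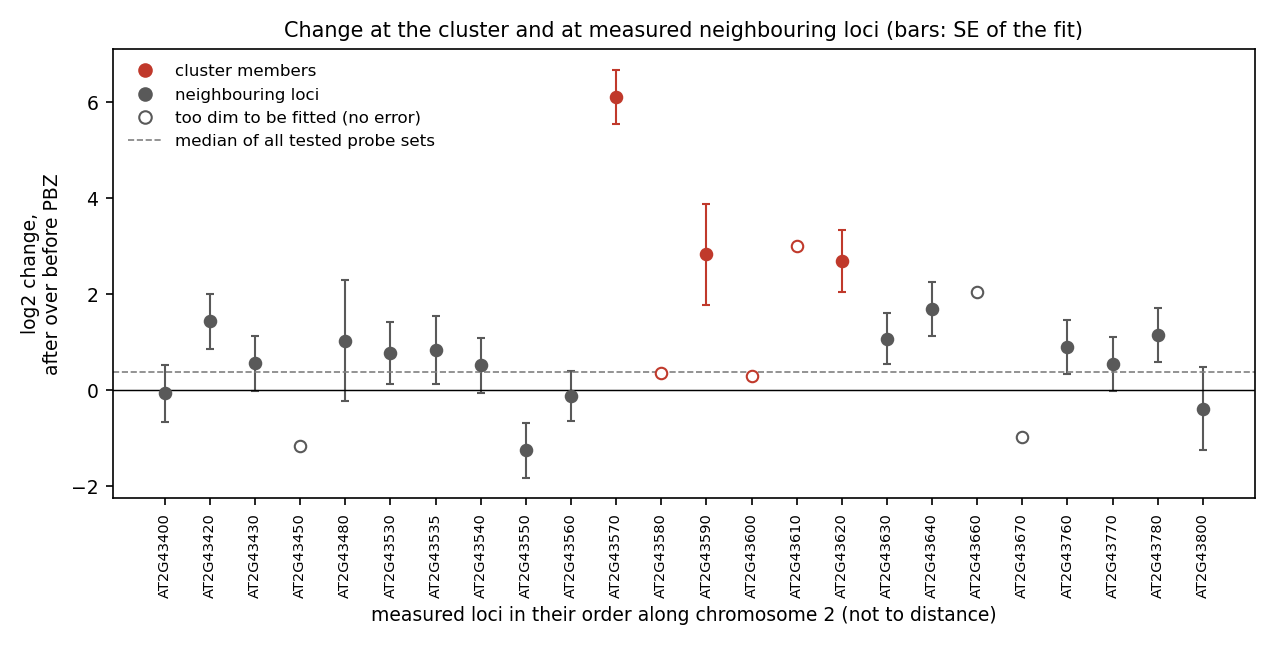
Log2 change after over before PBZ at the measured loci from AT2G43400 to AT2G43800, in their order along the chromosome but not to distance, with members in red and neighbours in grey. Bars are the SE of the fit, open points were too dim to be fitted, and the dashed line is the median of all tested probe sets, 0.37. The tested neighbours lie between -1.25 and 1.70, and CHI is at 6.11.

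Other genes of chitin breakdown and sensing, and enzymes that often accompany them, were taken from 4 lists: the other GH19 chitinases, the GH18 chitinases, chitin perception and signalling, and the beta-glucanases of family GH17, which cut callose or fungal glucan and several of which are induced with chitinases in defence. The family of each locus is as known from the Arabidopsis annotation. Of 51 loci listed, 20 had rows and 11 were tested, of which 2 rose and 0 fell (limma adjusted p under 0.05 over all probe sets). Among all 12239 tested probe sets, 5.34% rose and 0.245% fell. At an unadjusted p under 0.05, 4 were higher and 0 lower, and the share of all probe sets at that level was not counted. The lists were chosen with earlier results of these data known, so nothing is read from these counts.

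Among the other GH19 chitinases, 3 of 8 had rows, and 1 of the 3 rose. This was AT4G01700, at 356.1 and 352.0 after PBZ against 50.4 and 62.8 before PBZ. The replicates agreed closely and the groups were well apart, with a log2 change of 2.65 ± 0.55 (SE, limma adjusted p = 0.00199). The call was lost when after replicate 1 (adjusted p = 0.0802) or after replicate 2 (0.0605) was left out and when the error model had no intensity trend (0.0699), though its log2 change was between 2.11 and 2.81 in every alternative run. AT1G02360 had 53.1 and 37.4 after PBZ against 8.5 and 27.8 before PBZ (log2 change 1.54 ± 0.65, adjusted p = 0.199), and its size rested on the untreated arrays: the log2 change was 2.39 (adjusted p = 0.0337) with before replicate 2 left out and 0.68 (adjusted p = 0.769) with before replicate 1 left out. AT3G47540 had 196.3 and 198.0 after PBZ against 214.6 and 108.1 before PBZ. Its groups overlapped, and its log2 change of 0.37 ± 0.56 turned to -0.19 under quantile normalization. The median of the 3 was 1.54.

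The GH18 chitinases, a family with another fold and catalytic mechanism, were too dim to test. Of 10 listed, 5 had rows and 0 entered the fit. ChiC (AT4G19810), a class V chitinase, had 15.4 and 18.6 after PBZ against 1.0 and 1.6 before PBZ. Its groups did not overlap, and with both untreated arrays set to the floor the ratio of geometric means was 2.69. The other 4, AT4G19720, AT4G19730, AT4G19740 and AT4G19820, read 15.9 or less on every array, and each had at least 1 array after PBZ under the floor.

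Chitin perception was covered by 1 of 16 listed genes, BIK1 (AT2G39660), a cytoplasmic kinase that acts below pattern receptors. It had 108.8 and 87.7 after PBZ against 14.2 and 51.7 before PBZ, a log2 change of 1.85 ± 0.61 (SE, limma adjusted p = 0.0726). It passed with the dimmer 0.5 of probe sets left out (adjusted p = 0.0269), but not in the fit with the replicate block (0.141) nor when the intensity trend was dropped (0.321). With before replicate 2 left out the log2 change was 2.78 (adjusted p = 0.00899), and with before replicate 1 left out it was 0.92 (adjusted p = 0.629). The LysM receptors themselves were not analysed here.

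Of the beta-glucanases, 11 of 17 listed had rows and 7 were tested, of which 1 rose. AT3G13560 had 268.3 and 195.2 after PBZ against 25.2 and 36.7 before PBZ. All treated values exceeded all untreated ones by a wide margin, with a log2 change of 2.91 ± 0.56 (SE, limma adjusted p = 0.000894). It did not pass without an intensity trend (adjusted p = 0.0605). The other 6 tested, AT4G34480, AT4G31140, AT1G66250, AT2G27500, AT4G18340 and AT2G01630, had log2 changes between -0.58 and 0.98, and the median of the 7 was -0.15. Listed loci that were not analysed here, among them AT3G57260, AT3G57240 and AT4G16260, are not covered by this median. Of the 4 untested, AT4G29360 had 2.0 and 1.2 after PBZ against 11.4 and 11.3 before PBZ. With both treated arrays set to the floor, its ratio of geometric means, before over after, was 1.80. AT3G61810 had 9.3 and 7.1 after PBZ against 1.2 and 0.8 before PBZ. AT2G16230 and AT3G23770 were under the floor on all arrays.

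**Figure D3:**
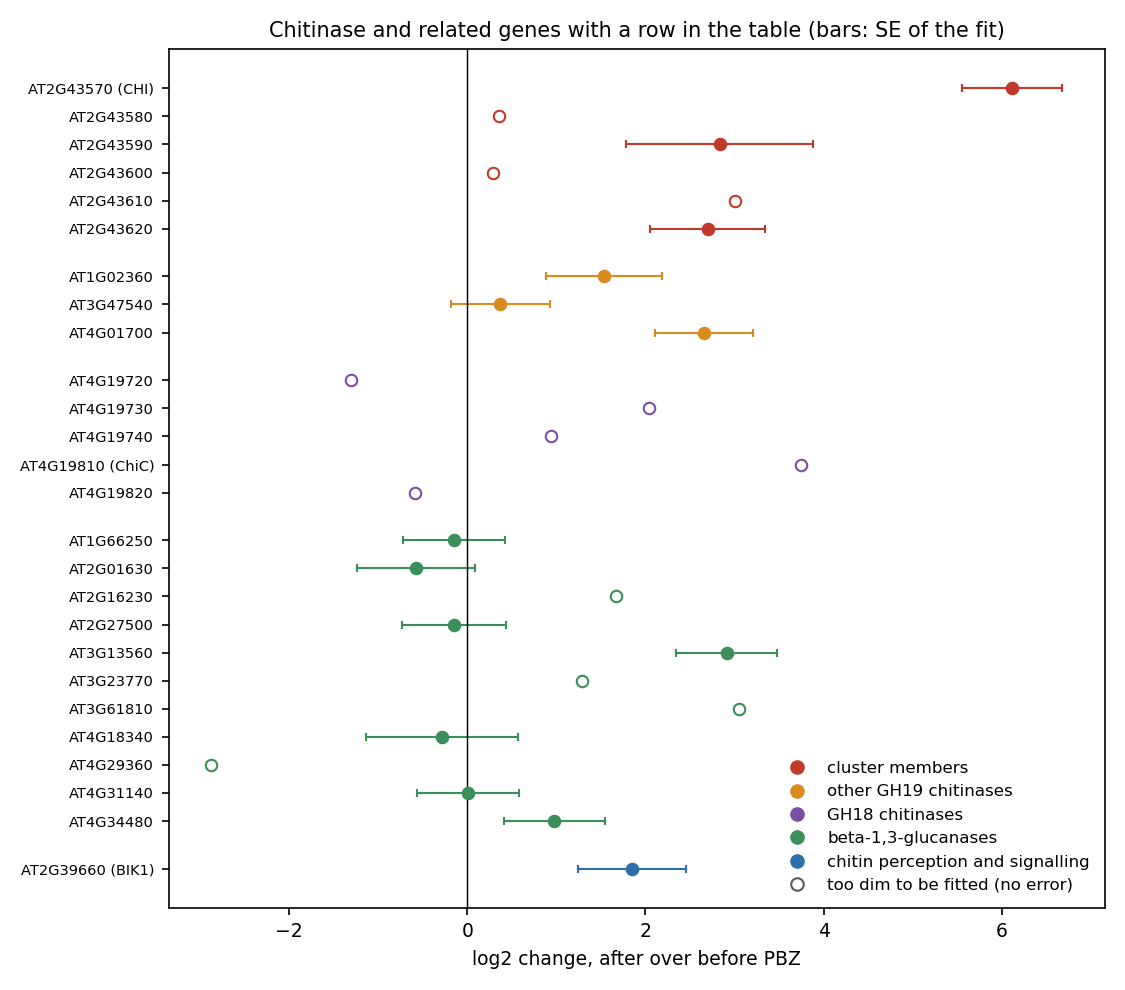
Log2 change after over before PBZ of the 6 clustered genes and of the listed chitinases, beta-glucanases and BIK1 that had rows, 1 row per locus, coloured by list. Bars are the SE of the fit, and open points were too dim to be fitted, so their positions are uncertain. AT4G01700 at 2.65 and AT3G13560 at 2.91 passed the test.

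To see which transcripts followed the same course as CHI, log2 signals were centred on each gene's mean over the 4 arrays, and the distance to CHI was taken over the 4 values for 6796 tested probe sets of 1 gene. This is a description of 4 arrays in 2 groups, so genes with a similar jump come out as near whatever their function. The 5 with the smallest distances were AT2G42360, AT3G48640, AT1G05340, AT4G30640 and AT4G39670. All 5 were under the floor on both untreated arrays, which CHI was not, so their distances and their order are not firmly measured. AT2G42360, for example, had 118.1 and 69.4 after PBZ against 1.6 and 1.1 before PBZ. With signals under the floor set to it, an alternative added after the data were seen, AT3G48640 was the only one of them still among the 5 nearest. It had 352.2 and 286.2 after PBZ against 6.2 and 5.5 before PBZ. Of the other 4 nearest by that measure, neither AT4G29520 nor AT3G47480 had a signal under the floor, while AT3G11340 was under it on both untreated arrays and AT4G00700 on 1. AT2G43620, the member other than CHI above the floor throughout, lay at a distance of 3.69.

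**Figure D4:**
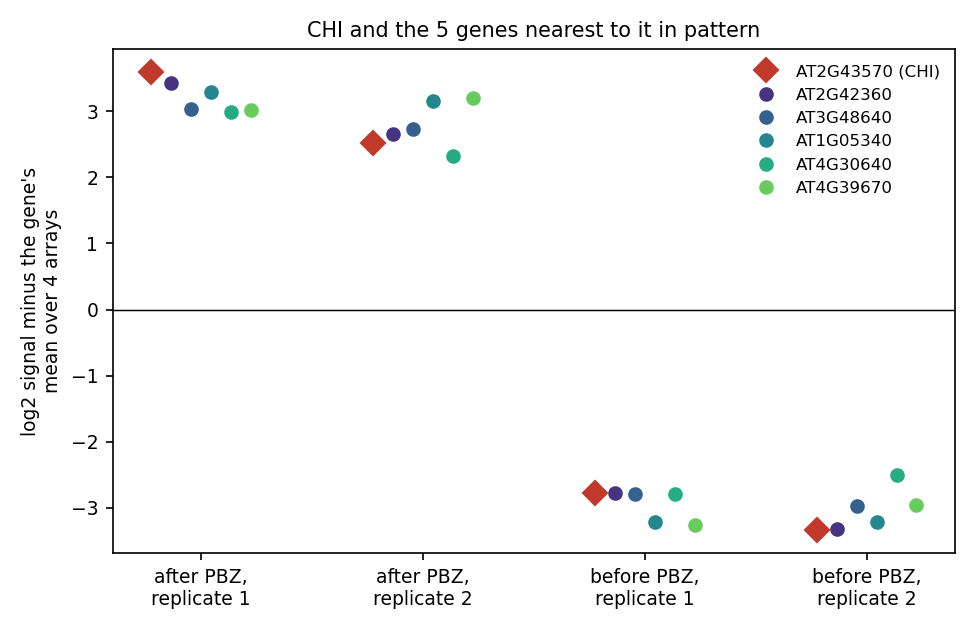
Log2 signal minus the gene's own mean over the 4 arrays, for CHI (red diamonds) and the 5 genes at the smallest distance from it on signals as deposited, on each array. All 6 lie above 0 on both arrays after PBZ and below 0 on both arrays before PBZ. The untreated values of the 5 genes come from signals under the floor of 6.30, so their depth below 0 is uncertain.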

How the data were processed

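Leaf RNA of 4 samples was grouped by the sample titles into after PBZ and before PBZ. Per the labels' protocols, biotin-labelled cRNA was hybridised to Affymetrix arrays, and the submitters' processing notes name GCOS. The sources used here give neither its settings nor the scaling between arrays. For each array the authors deposited 1 linear signal intensity per probe set, which was not rescaled. Of 16383 rows, 64 control rows were left out. The platform annotation gave 1 gene for 9685 probe sets, several genes for 356 and no listed gene for 6278. Loci and symbols came from the TAIR10.1 reference.

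Signals were taken as log2, with 2 values of 0 set to 0.1. The lowest 0.25 of probe sets by mean log2 signal (4080) were left out. limma 3.58.1 in R 4.3.3 fitted the group difference over 12239 probe sets with lmFit and eBayes, the error following an intensity trend, 2-sided, with p-values adjusted by Benjamini-Hochberg at 0.05, on 2 residual and 27.2 prior degrees of freedom. The fit was also run on simulated arrays whose means and spread came from these data, so that run is no independent check. With 2 arrays per group the precision is limited, and detection calls were not used here. Alternatives were 2 other scalings, 2 other filters, a pseudocount of 1.3, a replicate block, no intensity trend and each array left out. The members and lists were chosen with earlier results of these data known. Every member, every tested list gene, the loci flanking the run and the 5 genes nearest to CHI in pattern were named by rule. For a ratio given with arrays set to the floor, signals under 6.30 were first set to that value, a floor set with the data in view. Such a ratio is of geometric means and is no lower bound over single arrays.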

Additional observations from a re-analysis of the deposited data

How the results depend on the processing

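The log2 change of CHI was between 5.73 and 6.11 under every scaling, filter, pseudocount and error model run, and between 5.58 and 6.65 with 1 array left out. AT2G43590 and AT2G43620 stayed positive in every alternative that gave a value, and leaving out the dimmer 0.5 of probe sets gave none for either. The list genes that rose, 2 as reported, numbered 0 without an intensity trend, 3 with the dimmer 0.5 left out and 1 to 4 with 1 array left out. Among the neighbouring loci 1 fell under quantile normalization and 1 rose with the dimmer 0.5 left out. Over all probe sets, rises numbered 157 without an intensity trend, 447 with no dim filter and 217 to 1136 with 1 array left out. Falls numbered 278 under quantile normalization, 179 with arrays centred, 15 with no dim filter, 48 with the dimmer 0.5 left out, 8 without an intensity trend and 12 to 38 with 1 array left out.

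With the replicate number as a block (replicate block), 543 rose and 29 fell, 2 list genes rose and 0 neighbours passed. Deviations of same-numbered arrays correlated at r = -0.06 across probe sets, so the labels give the samples a shared number and no pairing was taken from it.

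The direction of some changes that did not pass turned. AT4G31140 was at -0.40 under quantile normalization and -0.36 with arrays centred, and AT3G47540 at -0.19 under quantile normalization. With 1 array left out, the range was -0.24 to 0.26 for AT4G31140, -0.12 to 0.87 for AT3G47540, -0.78 to 0.47 for AT2G27500, -0.59 to 0.29 for AT1G66250, -0.80 to 0.24 for AT4G18340 and -0.35 to 0.11 for AT2G43560. The cause was not tested. The genes nearest to CHI in pattern were picked on this same contrast, so no test is read from them. The log2 change of AT2G42360 was 5.71 without after replicate 1 and 6.48 without after replicate 2. That of AT4G30640 was 4.98 without after replicate 1 and 5.64 without after replicate 2. Dim signal limits 4 of the 6 members, with at least 1 array under the floor.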

Other observations

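A pair of neighbouring loci showed a wide spread between the replicates after PBZ, seen after their values were examined. AT2G43530 had 103.9 and 662.3 after PBZ against 124.9 and 190.0 before PBZ. AT2G43535, which lies beside it, had 15.3 and 40.9 after PBZ against 19.4 and 10.1 before PBZ. Both were higher on after replicate 2, as were AT2G43590, AT2G43610 and AT2G43620, and neither passed the test (limma adjusted p = 0.609 and 0.611). As 51.5% of all probe sets were brighter on after replicate 1, either direction was common and nothing is read from the shared one.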
